A study of Gossypium hirsutum with 4 samples.

Results

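The peaks described here were called in the B immunoprecipitate (IP) of cotton leaf chromatin, lay on one of the 26 chromosomes, carried a score of at least 15, and shared no base with any peak called in the D53 IP. They are called B-only peaks below. The set was thus chosen by the B score and by the absence of a D53 peak, and neither is a finding about it. The rule selected 1004 of the 19400 peaks in the B list, out of 37415 peaks in both lists together. The B peaks that met the same score minimum on chromosomes but overlapped a D53 peak, 2334 in number, are called shared B peaks.

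The tissue was leaves of Gossypium hirsutum, upland cotton, and FLAG was the antibody named for every sample. The groups were the B IP, the B input, the D53 IP and the D53 input, with 1 library each. The labels give no genotype, construct, plant age or treatment beyond IP or control DNA. They do not state what B stands for, nor do they name an IP from plants that lack a tagged protein. Peaks of the B IP therefore cannot be assigned to a named protein, and a B-only peak is a place where a peak was called in one list and none in the other.

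Strigolactones are plant hormones that restrain shoot branching. In rice, D53 represses the transcription of strigolactone-responsive genes until the hormone is perceived, when the protein is marked by an F-box protein and degraded by the proteasome. It acts together with corepressors of the TOPLESS family and with other transcription factors, and a related protein of Arabidopsis has also been shown to bind DNA directly. Upland cotton is an allotetraploid, so most loci exist as a copy on an A chromosome and a copy on the D chromosome of the same number. The A chromosomes are longer, mainly because they carry more transposable elements, and on cotton chromosomes genes are concentrated towards the ends while repeats fill the middle.

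The share of B peaks that lacked a D53 peak fell with the B score. Among the 9720 B peaks on chromosomes, 63.3% shared no base with a D53 peak. Among the 3338 with a score of at least 15 the share was 30.1% (95% Wilson interval 28.5 to 31.7), which is the set described here. From a score of 15 to 19 it was 50.2% (46.8 to 53.5), and from 20 to 29 it was 36.0% (32.8 to 39.3). It was 21.7% (18.8 to 24.95) from 30 to 49 and 19.1% (15.9 to 22.8) from 50 to 99. From a score of 100 upwards 23 of 440 peaks, or 5.23% (3.51 to 7.72), had no D53 peak. The score is the authors' value for each peak, a whole number that no source used here defines, and read depth is unknown. No test was run on any comparison below, because each IP has 1 library. Intervals reflect the number of peaks counted and treat peaks as independent, which close neighbours are not.

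**Figure D1:**
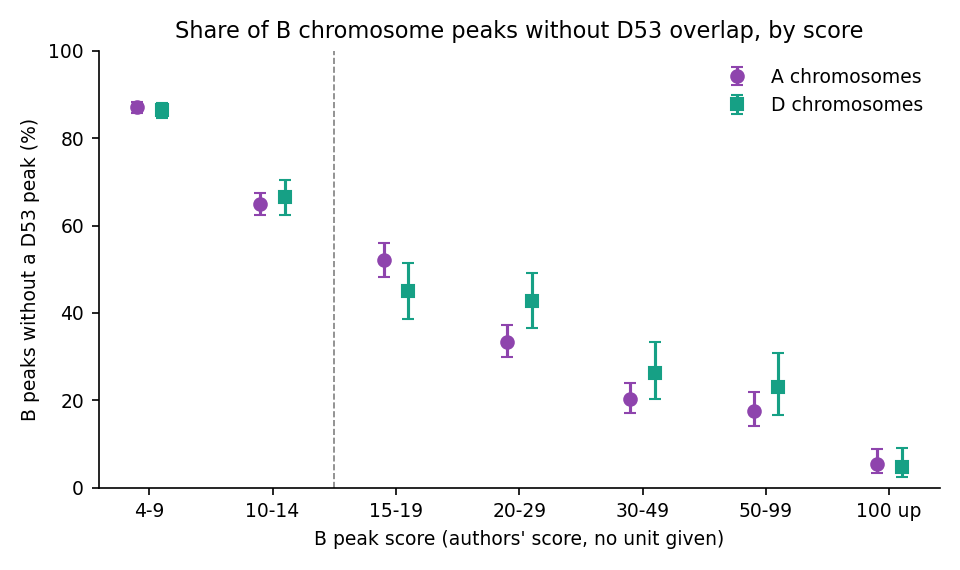
The share of B chromosome peaks without an overlapping D53 peak (y axis, percent) is plotted by score band (x axis), for A and D chromosomes, with 95% Wilson intervals as bars. The dashed line marks the score minimum of 15, and the share falls to 5.47% on A and 4.82% on D chromosomes in the highest band.

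Scores of B-only peaks were concentrated near the minimum. Their median was 21 (quartiles 17 and 30, highest 199), against 35 (22 and 70, highest 649) for shared B peaks. Of the B-only peaks 735 scored under 30, 117 scored at least 50 and 23 at least 100. Just inside the minimum, at a score of 15, there were 123 B-only and 78 shared B peaks. Just outside it, at a score of 14, there were 141 peaks without and 98 with a D53 overlap. On the overlap side of the rule, the closest B-only peak lay 25 bp from a D53 peak, and the shared B peak with the least overlap had 4 bases in common with one. Only 26 of the 2334 shared B peaks had at most 100 bases in common with D53 peaks.

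The D53 scores at shared B peaks show what was called at sites of like B score. For each shared B peak, the highest score of any overlapping D53 peak was taken. Where B scored 15 to 19, this D53 score had a median of 11 (quartiles 9 and 14). It was under 5 for 3 of those 424 shared B peaks. Where B scored 20 to 29 the D53 median was 15 (12 and 19), and from 30 to 49 it was 24 (20 and 28). From a B score of 50 to 99 the median D53 score was 38, and the lowest was 11. The lowest score anywhere in the D53 list was 3. A D53 score exists only where a peak was called, so these values describe called partners and say nothing of the D53 signal at B-only peaks.

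The B-only peak of highest score was at A08:1904518-1904709, on the A chromosome of that number, with a score of 199 and a width of 192 bp. Its nearest D53 peak was 208339 bp away and scored 5, and the nearest other B peak was 156058 bp away with a score of 10. It thus stood alone in both lists, close to the start of A08 at 1.84% of the span. The second, at D08:39149122-39149565, scored 177, but a D53 peak with a score of 98 lay only 444 bp from it. The third, at D12:23626833-23627087, scored 168, and the nearest D53 peak, 85016 bp away, scored 9.

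The next peaks in order of score divide in the same way. At A12:83773639-83773846 the score was 160, and a D53 peak with a score of 111 lay 2185 bp away. At A11:17324520-17324965 the score was 144, with a D53 peak of score 214 at 993 bp, the only one among these 10 neighbours that scored above the B-only peak. The peak at D06:56625942-56626563 scored 142 and was the widest of the 10 at 622 bp. Its nearest D53 peak, 12605 bp away, scored 4, while another B-only peak with a score of 120 lay 466 bp from it. At A12:64723086-64723278 the score was 139, and the nearest D53 peak scored 77 at 2157 bp. The peak at A01:44684642-44684841 scored 134 and was 71950 bp from a D53 peak, which scored 4. The last of the 10 were at A04:30229399-30229649 with a score of 132 and at A06:49543839-49544097 with a score of 129. Their D53 neighbours lay 1630 bp away with a score of 113 and 528 bp away with a score of 39. High-scoring B-only peaks were thus found both beside D53 peaks and far from any.

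B-only peaks were narrower than shared B peaks. Their median width was 240 bp (quartiles 208 and 307), against 342 bp (250 and 526) for shared B peaks. A width under 200 bp, close to the narrowest B peak of 186 bp, was found for 16.8% of B-only peaks (95% Wilson interval 14.7 to 19.3) and 4.37% of shared B peaks (3.61 to 5.28). Widths of at least 500 bp were found for 6.87% (5.47 to 8.61) and 27.1% (25.4 to 28.96). Width and score come from the same IP and input, and a wider peak has more bases in which an overlap can occur, so these values are a description of the set.

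The difference in width was present at like score. From a score of 15 to 19 the medians were 248 bp for B-only and 315 bp for shared B peaks. From 30 to 49 they were 218 bp and 344 bp, and from 100 upwards 259 bp and 411 bp. In the band from 30 to 49, 25.7% of B-only peaks (19.4 to 33.1) and 4.02% of shared B peaks (2.67 to 6.01) were under 200 bp wide.

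**Figure D2:**
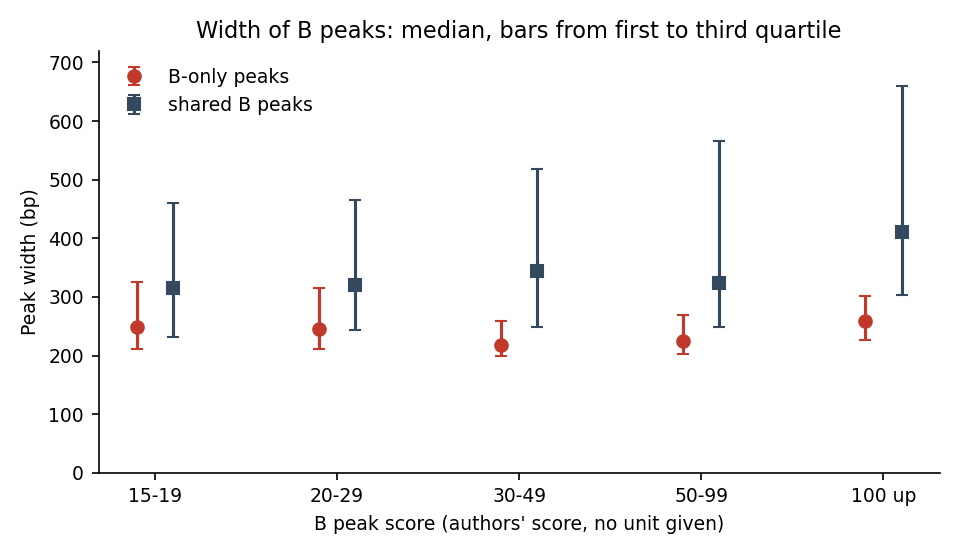
Peak width in bp (y axis) is plotted by score band (x axis) for B-only and shared B peaks on chromosomes; points are medians and bars run from the first to the third quartile. The B-only median lies below the shared median in all 5 bands, at 248 against 315 bp in the lowest and 259 against 411 bp in the highest.

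The widest B-only peaks had modest scores. The widest, at A13:59444317-59445899, covered 1583 bp and scored 28. The next, at A10:10526162-10527596, covered 1435 bp and scored 23. The others of the 5 widest were at D06:19013141-19014188 with 1048 bp, at A03:29765390-29766388 with 999 bp and at A03:84965154-84966079 with 926 bp, and they scored 26, 20 and 35. Their D53 neighbours were 1900 to 29328 bp away and scored 5 to 14.

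Per Mb of span, B-only peaks were denser on A than on D chromosomes, as were shared B peaks. The A chromosomes held 715 B-only peaks and the D chromosomes 289, so 71.2% were on A (95% Wilson interval 68.3 to 73.9). For shared B peaks the share on A was 72.1% (70.2 to 73.9), and for B-only peaks under a score of 15 it was 66.1% (64.8 to 67.4), while A chromosomes made up 60.03% of the span. The span of a chromosome was taken as the last base of its last peak in either list, a lower bound of its length. A chromosomes carried 0.61 ± 0.08 B-only peaks per Mb, against 0.37 ± 0.12 for the D chromosomes (mean and SD over 13 chromosomes in each subgenome). The pooled ratio of A to D density was 1.65 for B-only peaks and 1.72 for shared B peaks.

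In each of the 13 pairs of chromosomes with the same number, B-only peaks were denser on the A member. Shared B peaks were too, except on A08 and D08 (1.41 and 1.55 per Mb), so the pattern is not particular to B-only peaks. For B-only peaks the margin ran from narrow to wide. A03 had the highest density of any A chromosome at 0.78 per Mb, while D03 had the lowest of any D chromosome at 0.21 per Mb, with only 10 B-only peaks. On A05 and D05 the densities were 0.66 and 0.61 per Mb, and D05 was the densest D chromosome. On A10, the least dense A chromosome, there were 0.51 per Mb, against 0.24 on D10. The ranges of the subgenomes overlapped, since D05 and D09, at 0.57 per Mb, exceeded several A chromosomes.

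**Figure D3:**
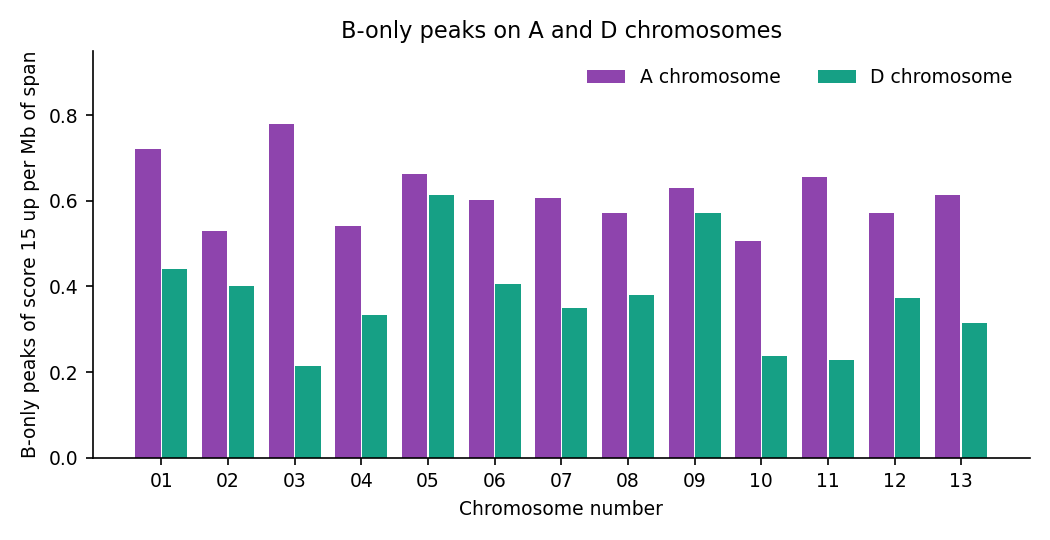
Bars give the number of B-only peaks of score 15 and above per Mb of span (y axis) on the A and the D chromosome of each number (x axis). The A bar is the higher in all 13 pairs, by the least on A05 and D05 (0.66 and 0.61) and A09 and D09 (0.63 and 0.57).

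How often a B peak lacked a D53 partner did not differ beyond the intervals between the subgenomes. Of B peaks with a score of at least 15, 29.8% (28.0 to 31.7) were B-only on A and 30.7% (27.8 to 33.7) on D chromosomes. The bands differed in direction. From a score of 15 to 19 the share was 52.1% (48.2 to 56.0) on A and 45.0% (38.7 to 51.5) on D, whereas from 20 to 29 it was 33.4% (29.8 to 37.2) on A and 42.7% (36.6 to 49.1) on D chromosomes. Single chromosomes spread more widely. D09 had 29 B-only and 28 shared B peaks, a share of 50.9% (38.3 to 63.4), the highest of the 26. D08 had 25 B-only and 102 shared B peaks, the lowest share at 19.7% (13.7 to 27.5), and the B-only peaks on D08 had a median score of 49. On A chromosomes the share lay between 21.5% on A07 and 37.1% on A03.

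Along the chromosomes, B-only peaks were most frequent in the middle but were also found near the ends, where shared B peaks were few. The central 50% of the span held 629 B-only peaks, or 62.6% (95% Wilson interval 59.6 to 65.6), and 69.7% of shared B peaks (67.8 to 71.5). The share was lower for B-only than for shared B peaks on 19 of 26 chromosomes. For B-only peaks under a score of 15 it was 47.0% (45.6 to 48.3), below the 50% of an even spread. Among B-only peaks of at least 15 it was 63.5% on A and 60.6% on D chromosomes. At like score, the B-only share was again the lower: from a score of 15 to 19 the share was 60.2% (55.5 to 64.7) for B-only and 70.8% (66.3 to 74.9) for shared B peaks, and from 30 to 49 it was 63.8% (55.9 to 71.0) and 79.5% (75.9 to 82.7). The intervals overlapped from 50 to 99, at 53.2% (43.2 to 62.95) and 66.3% (61.6 to 70.8), and from 100 upwards, at 43.5% (25.6 to 63.2) and 47.2% (42.5 to 52.0).

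At the chromosome ends a larger share of B peaks was B-only than on the rest of the span. Each end was taken as the outermost 10% of the span, a choice made after the values were seen. The ends held 136 B-only and 113 shared B peaks, so 54.6% of B peaks there lacked a D53 partner (48.4 to 60.7), against 28.1% (26.5 to 29.7) of B peaks on the rest of the span. The interval at the ends includes 50%, and whether B-only peaks were the majority there depended on the score minimum. The share at the ends was 60.9%, 42.8% and 26.2% at minimums of 10, 20 and 50. B-only peaks at the ends were 13.5% of all B-only peaks, and shared B peaks there were 4.84% of all shared B peaks. Of B-only peaks under a score of 15, 12.7% lay in the first and 13.7% in the last 10% of the span, so a place at the ends is not particular to the higher scores. The share was 55.3% (46.8 to 63.5) in the first 10% of the span and 53.8% (44.8 to 62.6) in the last. This share was higher at the ends than elsewhere on 23 of 26 chromosomes and lower on the other 3.

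The higher share at the ends was present at like score and in both subgenomes. From a score of 15 to 19, 73.2% (63.6 to 81.0) of B peaks at the ends and 47.2% (43.7 to 50.8) elsewhere were B-only. From 20 to 29 the shares were 60.4% (46.3 to 73.0) and 34.5% (31.3 to 37.9), and from 30 to 49 they were 46.5% (32.5 to 61.1) and 20.1% (17.2 to 23.4). From 50 to 99 the ends held 31 peaks, of which 38.7% (23.7 to 56.2) were B-only, against 17.8% (14.6 to 21.5) elsewhere. From 100 upwards they held 30, and the intervals overlapped, with 13.3% (5.31 to 29.7) at the ends and 4.63% (2.99 to 7.12) elsewhere. On A chromosomes the share was 51.7% (44.3 to 59.1) at the ends and 28.1% (26.3 to 30.0) elsewhere. On D chromosomes it was 61.0% (49.9 to 71.2) and 28.0% (25.1 to 31.1).

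**Figure D4:**
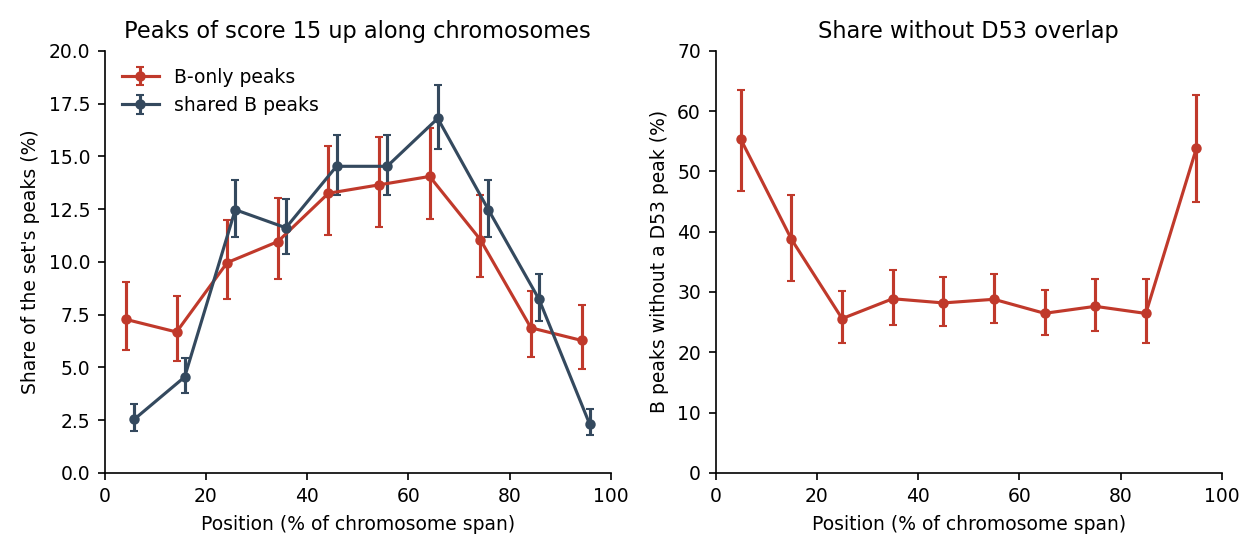
The left panel gives the percentage of B-only and of shared B peaks with a score of at least 15 (y axis) in each 10% of the chromosome span (x axis), and the right panel the percentage of these B peaks that were B-only; bars are 95% Wilson intervals. The first 10% holds 7.27% of B-only and 2.53% of shared B peaks, and the right panel stands at 55.3% and 53.8% at the ends and between 25.6% and 38.7% in the others.

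The distances of B-only peaks to the nearest D53 peak spanned several orders of magnitude. The median gap between peak edges was 8735 bp (quartiles 884 and 77935 bp, longest 1111648 bp). This median depended on the settings. It was 2567 bp at a score minimum of 50. When B peaks with gaps of at most 1 kb were joined first, 771 B-only peaks were found and the median was 32485 bp. Without 100 kb windows dense with peaks of both lists it was 13693 bp, within the interval of the median as reported (5912 to 16850 bp). A D53 peak lay within 1 kb of 276 B-only peaks, or 27.5% (95% Wilson interval 24.8 to 30.3), and at 1 to 10 kb from 232, or 23.1% (20.6 to 25.8). It lay at 10 to 100 kb from 286, or 28.5% (25.8 to 31.4), and farther than 100 kb from 210, or 20.9% (18.5 to 23.5). For B-only peaks under a score of 15 the median gap was 37892 bp, and 16.9% (15.9 to 17.9) had a D53 peak within 1 kb. Gaps of 3162 bp to 10 kb made up 6.77% of B-only peaks, a low point after 16.3% at 1000 to 3162 bp. The next bins held 9.86% (10000 to 31623 bp) and 18.6% (31623 bp to 100 kb). B-only peaks under a score of 15 had the same low point, with 6.49% between 12.7% and 11.6% in the bins on either side.

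**Figure D5:**
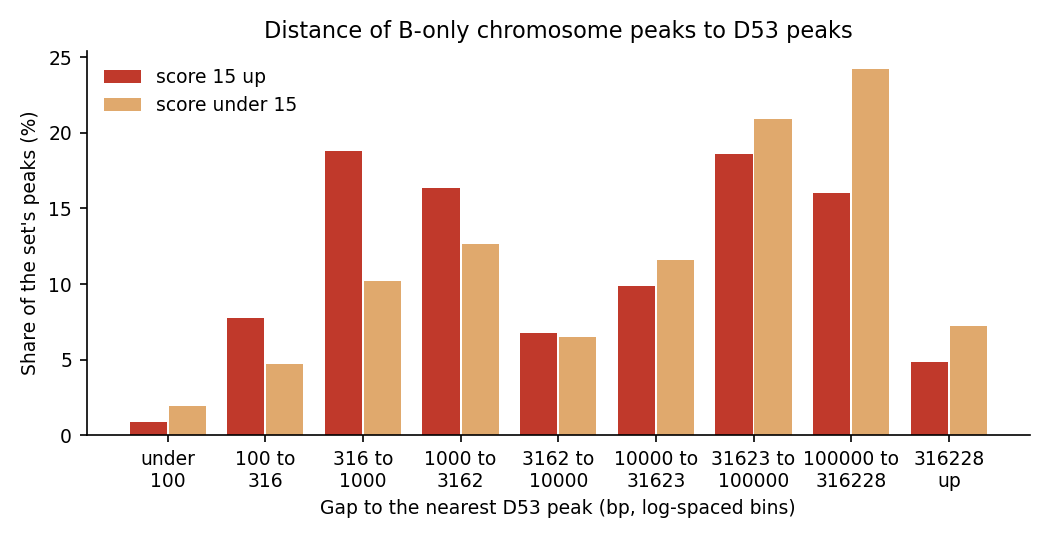
Bars give the percentage of B-only chromosome peaks (y axis) by gap to the nearest D53 peak in bp, in log-spaced bins (x axis), for scores of at least 15 and under 15. At 316 to 1000 bp the bars stand at 18.8% and 10.2%, and at 100000 to 316228 bp at 16.04% and 24.2%.

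B-only peaks close to a D53 peak had higher-scoring D53 neighbours than the distant ones. The nearest D53 peak had a median score of 12 (quartiles 8 and 28.5) when it lay within 1 kb and 10 (6 and 22) at 1 to 10 kb. It had a median of 6 (4 and 10) at 10 to 100 kb and 6 (4 and 11) beyond 100 kb, the same median as the 9420 D53 peaks on chromosomes. The B-only peaks themselves scored alike in these 4 classes, with medians of 21, 22, 21 and 21. The share on A chromosomes was 69.6%, 71.1%, 76.2% and 66.7%, and the share in the central 50% was 62.3%, 62.5%, 65.7% and 59.0%.

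Of the 276 B-only peaks with a D53 peak within 1 kb, 187 had a neighbour that overlapped some other B peak, and the remaining 89 had one that overlapped no B peak. Among all D53 chromosome peaks with a score of at least 10, 689 of 2985, or 23.1%, overlapped no B peak. The neighbours were of any score, so their split cannot be set against that share and is a description only. In 70 of the 276 the D53 neighbour scored above the B-only peak. On both sides a D53 peak lay within 1 kb of 27 B-only peaks. The closest was at A01:6996372-6997139, with a score of 15 and a D53 peak of score 8 at 25 bp. The 5 closest had gaps of 25 to 62 bp, B scores of 15 to 20 and D53 scores of 5 to 11.

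At the other extreme, 365 B-only peaks had no peak of either list within 10 kb, and 108 had none within 100 kb. The farthest from a D53 peak was at D07:54454968-54455233, with a score of 26 and a gap of 1111648 bp. It is also the last peak of D07 in either list. Next came A03:13881112-13881372 with a score of 24 and a gap of 837479 bp, and A07:25744233-25744554 with a score of 20 and a gap of 713519 bp. The peaks at D02:11039211-11039576 and A13:2772492-2772679 followed, with scores of 16 and 29 and gaps of 706497 and 705275 bp. Both the A03 and the D02 peak had a second B peak within 1 kb, with a score of 13 at 378 bp and of 14 at 620 bp. At such distances from any D53 peak, those neighbours could not have overlapped one.

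The surroundings of B-only peaks within the B list were also examined. Another B peak was within 1 kb of 310 B-only peaks, or 30.9% (95% Wilson interval 28.1 to 33.8), and of 977 shared B peaks, or 41.9% (39.9 to 43.9). Of those 310, 178 had a shared B peak as the nearest neighbour and 141 had a neighbour of higher score. Of those 977, 746 had a shared neighbour and 361 had one of higher score.

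Most B-only peaks had no other B-only peak of score 15 or more within 10 kb. When B-only peaks with gaps of at most 10 kb were joined into runs, 830 stood alone, 108 formed pairs and 66 formed 20 runs of at least 3. Other peaks were not counted in this joining. Within 10 kb, 54.5% of B-only peaks had another B peak of any score and 50.6% had a D53 peak. Runs were 1.73 to 17.0 kb long. In 8 of the 20 no D53 peak lay inside, and in 10 all B peaks inside were B-only peaks of score 15 or more. The longest series was 6 peaks at D02:40478161-40492773, with scores of 15 to 29 among 11 B and 4 D53 peaks. Runs of 4 were found at A10:10526162-10530490 with scores of 15 to 23, at D08:15485282-15502285 with 61 to 115 and at D08:39176651-39187176 with 66 to 117. The shortest, at A12:47809979-47811712, held 3 peaks with scores of 80 to 90 and no D53 peak.

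Counted in windows of 1 Mb, B-only peaks occupied 664 of 1942 windows. In 449 there was 1 peak, in 151 there were 2, and 11 windows held at least 5. The fullest was D05:46000001-47000000 with 14 B-only peaks, followed by A05:62000001-63000000 with 9 and D08:15000001-16000000 with 8. These 3 contain 100 kb windows that are dense with peaks of both lists (at least 10 of each). The 13 dense windows held 43 B-only peaks, or 4.28% (3.195 to 5.72), and 276 shared B peaks, or 11.8% (10.6 to 13.2). B-only peaks there had a median score of 43 and were on A chromosomes in 19 cases and on D chromosomes in 24. Outside them the B-only median score was 21, and the share of B peaks without a D53 partner was 31.8%. Dense windows were chosen partly for their many D53 peaks, and the D53 list also decides which B peaks are B-only. The shares inside and outside these windows are therefore a description.

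Peaks found in the D53 list alone serve as the mirror set. On chromosomes 689 of 2985 D53 peaks with a score of at least 10 shared no base with a B peak, or 23.1%. The score minimums of the lists are not equivalent, so numbers of peaks cannot be compared between them. Shares and gaps varied with the minimum too. Of B-only peaks under a score of 15, 66.1% were on A and 47.0% were central, and their median gap was 37892 bp. The values below therefore describe each set at its own minimum and do not separate the 2 lists. B-only peaks were on A chromosomes in 71.2% of cases, against 76.2% (72.9 to 79.2) of D53-only peaks. They lay in the central 50% of the span in 62.6%, against 72.3% (68.8 to 75.5). The median gap to the nearest peak of the other list was 8735 bp for B-only and 23303 bp for D53-only peaks. Within 1 kb, 27.5% against 23.7% (20.6 to 27.0) had one. When B peaks were joined, the set changed from 1004 to 771 B-only peaks, and their median gap was 32485 bp. The order of the medians then turned round, but D53 peaks were not joined, so those sets are unlike. Median widths of 240 and 269 bp are not comparable, because the narrowest peak was 186 bp in the B list and 199 bp in the D53 list.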

How the data were processed

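Each IP had 1 deposited peak list, called against its own input and without pooling, per the peak names in the lists. The deposited value per peak was used as the authors' score, a whole number of undefined scale. The aligner, the caller and its threshold, and the genome build were not given in the sources used here. Leaf chromatin was cross-linked, sonicated and read as paired ends, per the labels' protocols. Starts counted from 0 and were raised by 1. Peaks were not linked to genes and sequences were not used here, as the coordinates of the lists were not shown to be those of the assembly behind the available gene table.

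Overlap meant at least 1 shared base, and gaps were measured between peak edges on 1 chromosome. Overlap calls matched bedtools 2.31.1 for all 6150 B chromosome peaks without a D53 overlap, and gap and overlap functions were tested on simulated data. Shares carry 95% Wilson intervals, which cover counting error only. The peaks named were the 10 of highest score, the 5 nearest to and the 5 farthest from a D53 peak, the 5 widest, runs of at least 3 with gaps up to 10 kb, and extreme chromosomes. The set and these rules were chosen with earlier results of these data known. Scripts ran in Python 3.11.15 with pandas 2.3.3, NumPy 2.4.6 and SciPy 1.17.1, and figures were drawn with matplotlib 3.10.9. Alternatives varied the score minimum, the overlap rule, dense windows, joining of peaks and the measure of position.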

Additional observations from a re-analysis of the deposited data

How the results depend on the processing

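The share of B peaks without a D53 overlap, 30.1% as reported, was 42.6%, 23.2% and 12.6% at minimums of 10, 20 and 50, 31.8% without dense windows and 28.4% with B peaks joined at gaps up to 1 kb. The A share of B-only peaks, 71.2%, was 67.9% and 66.7% at minimums of 20 and 50, and the central share, 62.6%, was 51.3% at 50. The median gap to a D53 peak, 8735 bp, was 2567 bp at a minimum of 50 and 32485 bp with joined peaks, by over 1.5 times each. Gaps of 12548 bp at a minimum of 10, 13693 bp without dense windows and 6341 bp under the rule on 50% coverage stayed within its interval. The median width was 234 bp at 50, against 240 bp. Median scores of 14, 28 and 74 at minimums of 10, 20 and 50 follow from the minimum itself. The central share stayed below that of shared B peaks in all 9 alternatives, and the A share did so in all 7 except joined peaks (73.5% against 72.8%). At the chromosome ends, where every alternative was added after seeing the data, the share of 54.6% was 60.9%, 42.8% and 26.2% at minimums of 10, 20 and 50, with 40.4%, 21.9% and 11.6% elsewhere. It was 61.7% in the outer 10% and 39.8% in the outer 40% of the span (both ends together, 20% as reported), with 28.9% and 27.6% elsewhere. For the other moves the cause was not tested. No paired analysis was possible because each IP has a single library, and for that reason no replicate could be left out. Unknown depth limits every statement about a missing peak.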

Other observations

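Scaffolds lie outside the set described above. On scaffolds named after a chromosome, 420 of 1607 B peaks with a score of at least 15 shared no base with a D53 peak, or 26.1% (95% Wilson interval 24.0 to 28.3). On unplaced scaffolds it was 1062 of 3334, or 31.9% (30.3 to 33.5). The median scores of these peaks were 21 and 22, against 21 for B-only peaks on chromosomes.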
